A study of Ovis aries with 60 samples.

Results

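The genes described here were 10 heat shock chaperones measured by RNA sequencing of semen from 20 F2 rams. They were taken by name from the deposited count table, which lists 28525 genes, and all 10 were among the 13577 genes that had enough reads to be tested. Among the 10, HSPA1L, HSPA2 and HSPA4L are the forms best known from developing male germ cells. The other 7, HSPA4, HSPA5, HSPA8, HSP90AA1, HSP90AB1, HSPB1 and HSPH1, are forms made in most somatic cells. The rams were Polypay sheep and grandsons of F0 males that received either a control diet or that diet with added rumen-protected methionine (0.22%, 1.5 g) between weaning and puberty. The F0 males were twins, with one of each pair on either diet; the labels do not say which were pairs. The methionine line and the control line each held 10 F2 rams, 2 from each of 5 F0 grandsires, and all F1 and F2 animals ate control diets. Single rams are named M1 to M10 in the methionine line and C1 to C10 in the control line. Semen was collected by electroejaculation, washed, treated with a buffer that lyses somatic cells, and used for total RNA without any sorting of cells. The comparisons asked whether the germ-cell and somatic forms followed the make-up of the libraries, and whether either followed the diet line.

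Chaperones of the HSP70 family bind exposed hydrophobic stretches of proteins in a cycle driven by ATP, which J-domain proteins start and nucleotide exchange factors such as the HSP110 proteins reset. HSP90 proteins take over partly folded clients with the help of co-chaperones, and small heat shock proteins hold unfolding proteins until HSP70 can act on them. The testis makes its own versions of several of these proteins: HSPA2 acts in meiosis and in spermatids, HSPA1L is made in spermatids, and HSPA4L is an HSP110 protein of the germ line, while the somatic forms include stress-induced genes such as HSPB1 and HSPH1 and constitutive ones such as HSPA8.

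Counts assigned to genes ranged from 805831 to 13137757 per library (median 3436936). The paper gives a narrower relative range for the reads sequenced per library. Values are TMM CPM, the usual depth-scaled counts with library sizes adjusted by the trimmed mean of M-values, whose factors ran from 0.361 to 2.54. Lists of marker genes for 3 kinds of cell described what the libraries held, each summed up as a score, the mean log2 CPM of its tested genes. The spermatid and sperm score (25 genes tested) ran from 2.98 to 7.75, the leukocyte score (22 genes) from 2.53 to 9.29 and the squamous epithelium score (17 genes) from 3.21 to 9.61, so markers of other cells were present beside those of the labelled sperm. The count table held 28 of 30 listed spermatid and sperm markers, 23 of 24 leukocyte markers and 19 of 24 squamous markers. Of those it held, none was at 0 in every ram, and PRM1, a sperm protamine, was read in each library. The squamous keratins KRT5 (at most 8.62 CPM) and KRT6A (at most 6.75) had too few reads to enter the score. The summed levels overlapped between the lines: spermatid markers ran from 453.05 to 12379 CPM in the control line and from 538 to 12499 in the methionine line, leukocyte markers from 173 to 57239 and from 253 to 28874, and squamous markers from 195 to 94113 and from 282 to 48133. Rams C10 (control line) and M7 (methionine line) stood apart, with the highest spermatid scores and the lowest squamous scores (3.21 and 3.58). The calls of the members, the network counts, the model of 3 scores and the ranges of rho are given with and without these rams (for the leukocyte score, without C1 and C10). In bulk RNA, fewer cells of a type and less RNA per cell cannot be told apart. The rams of one F0 grandsire share ancestry, and also an F1 father, since the paper bred a single F1 ram from each F0 sire. Except where the rams of a grandsire were summed, p-values measure the spread between rams and not between grandsires.

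The germ-cell forms were read in every library and tended to be higher in libraries rich in spermatid markers, with exceptions. Ram M4, with a spermatid score of 5.89, had the lowest HSPA2 of its line. Ram M2, with a low score of 3.89, had the highest HSPA1L of all rams. HSPA1L, the spermatid HSP70, had a lowest, median and highest level of 11.7, 27.9 and 146 CPM in the control line and of 12, 54.3 and 159 CPM in the methionine line. The lines overlapped over nearly the whole range, and the highest rams were C10 and M2. HSPA2, the HSP70 of meiosis, had 7.20, 13.04 and 55.9 CPM in the control line and 8.5, 12.9 and 69.6 CPM in the methionine line. Both medians were close to each other, with rams C10 and M5 at the top of their lines. HSPA4L, the germ-line HSP110 protein, had 17.7, 54.5 and 419 CPM in the control line and 19.2, 91.1 and 367 CPM in the methionine line. Its lowest and highest rams of all, C1 and C10, descend from the same F0 grandsire. Together these 3 genes took between 0.00195% and 0.0968% of a library's counts.

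HSPA1L reads carry an uncertainty of their own. In the sheep RefSeq annotation ARS-UI_Ramb_v3.0, a later build than that used for counting, the stress-induced HSP70 gene HSPA1A lies inside the span of HSPA1L, and the strand setting of the counts is not given in the sources used here. These genes did not move together in every library. Ram M7 had 243 HSPA1L counts and 0 HSPA1A counts, whereas ram M2 had 840 and 6160. Reads of HSPA8, HSP90AA1 and HSP90AB1 may also be split with near-identical copies elsewhere in the genome.

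The somatic forms other than HSPA4 spanned wider ranges between rams than the germ-cell forms. HSPA8, the constitutive cytosolic HSP70, had a lowest, median and highest level of 11.4, 514 and 4888 CPM in the control line and of 20.2, 857 and 4159 CPM in the methionine line. HSPA5, the HSP70 of the endoplasmic reticulum known as BiP, had 52.6, 713 and 4325 CPM in the control line and 55.0, 701 and 1894 CPM in the methionine line. For both genes the lowest ram was C10 in the control line and M7 in the methionine line, and the highest of all was ram C8.

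HSPH1, the stress-induced HSP110 protein, had 8.29, 425 and 4156 CPM in the control line and 7.27, 668 and 4628 CPM in the methionine line. HSPA4, an HSP110 protein made in most cells, had 9.78, 20.2 and 34.3 CPM in the control line and 16.4, 19.9 and 73.6 CPM in the methionine line. HSPA4 thus held the narrowest range of the 10 members, 7.53-fold between its lowest and highest ram, against 636-fold for HSPH1.

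HSP90AA1, the inducible cytosolic HSP90, had 110, 1847 and 9059 CPM in the control line and 135, 2036 and 10316 CPM in the methionine line. HSP90AB1, the constitutive cytosolic HSP90, had 9.0, 82.0 and 275 CPM in the control line and 11.7, 98.3 and 1885 CPM in the methionine line. In the methionine line the value of HSP90AB1 next below the highest was 252 CPM, so 1 ram, M2, set the upper end. HSPB1, a small heat shock protein, had 2.37, 115 and 616 CPM in the control line and 0.404, 133 and 4302 CPM in the methionine line, where the next value was 276 CPM. Its lowest value was 1 read in ram M7, equal to 0.734 CPM before TMM scaling (exact 95% interval 0.0186 to 4.09, for counting error only).

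Against all tested genes, the somatic forms other than HSPA4 were among the most variable. The SD of log2 CPM over the 20 rams was 2.78 for HSPB1, 2.63 for HSPH1, 2.41 for HSPA8, 1.99 for HSP90AA1, 1.77 for HSP90AB1 and 1.71 for HSPA5, against a median of 0.907 over all tested genes. HSPB1 lay at percentile 99.9 of that spread and HSPA5 at percentile 91.4. HSPA4L (SD 1.43), HSPA1L (1.12) and HSPA2 (0.989) were at percentiles 83.5, 69.2 and 58.3, and HSPA4 (0.640) was at percentile 19.9. The 7 somatic forms together took from 0.0344% to 2.0% of a library's counts.

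Germ-cell and somatic forms moved in opposite directions along the spermatid score. The slope is the log2 change in a gene's level for each doubling of the markers, with diet line in the model. It was positive and past the threshold for all 3 germ-cell forms, and negative and past the threshold for 6 of the 7 somatic forms (edgeR quasi-likelihood test, Benjamini-Hochberg adjusted p of at most 0.05 over all tested genes). The background was high: 60.7% of all tested genes were called for this score, 26.3% as higher and 34.4% as lower. A call by itself is therefore common, and the values below show the sizes.

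**Figure D1:**
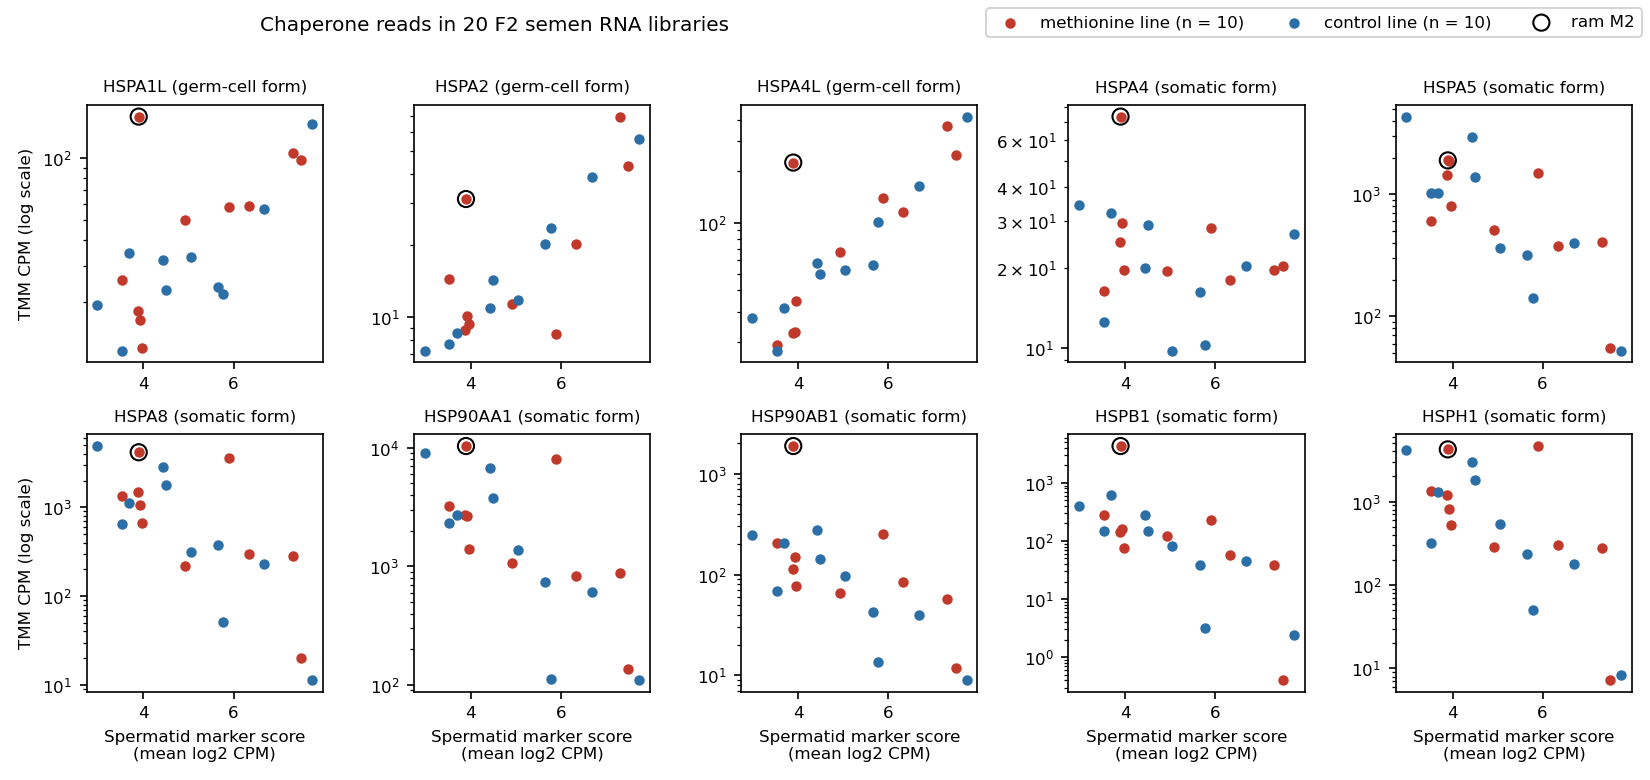
Each panel plots 1 chaperone gene, with the TMM CPM of each of the 20 rams (log axis) against the library's spermatid marker score (mean log2 CPM), red for the methionine line and blue for the control line, and ram M2 circled. The germ-cell forms rise to the right, 6 of the 7 somatic forms fall, HSPA4 keeps a narrow range, and ram M2 lies above the other rams of its score for most genes.

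Among the germ-cell forms, the slope was 0.73 ± 0.13 (SE, n = 20) for HSPA4L (edgeR adjusted p = 7.18e-05), 0.55 ± 0.093 for HSPA2 (adjusted p = 3.45e-05) and 0.42 ± 0.13 for HSPA1L (adjusted p = 0.00729). All 3 rose by less than the markers themselves, HSPA4L the most and HSPA1L the least. Among the somatic forms, the slope was -1.47 ± 0.31 for HSPB1 (adjusted p = 0.000493), -1.06 ± 0.31 for HSPA8 (0.00629), -1.05 ± 0.37 for HSPH1 (0.0177), -0.98 ± 0.23 for HSP90AB1 (0.00115), -0.93 ± 0.28 for HSP90AA1 (0.00662) and -0.86 ± 0.21 for HSPA5 (0.00152). HSPA4, with -0.14 ± 0.099 (adjusted p = 0.236), did not pass. The median slope was 0.55 over the germ-cell forms and -0.98 over the somatic forms, beside -0.05 over all tested genes.

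Some of these calls did not hold without the pair of libraries that stood apart. Over all tested genes, the calls fell from 8239 to 4660 in the same setting. Without rams C10 and M7, where 17.3% of all genes were called as higher and 17.02% as lower, 5 of the 9 calls remained: HSPA2 (0.56, edgeR adjusted p = 0.000969) and HSPA4L (0.69, 0.00299) higher, and HSPA5 (-0.65, 0.0219), HSP90AB1 (-0.82, 0.0232) and HSPB1 (-1.26, 0.00637) lower. HSPA1L (0.31, adjusted p = 0.141), HSPA8 (-0.75, 0.0551), HSP90AA1 (-0.68, 0.0617) and HSPH1 (-0.68, 0.113) no longer passed. Scaling mattered as well: with total counts in place of TMM, the median slope of all genes moved from -0.05 to 0.29, and the share of called genes that were higher moved from 43.3% to 86.5%. Relative to that median the germ-cell forms stayed above it (HSPA4L by 0.78 under TMM and 0.52 under total counts, HSPA1L by 0.47 and 0.30), and the 6 called somatic forms stayed below it (HSPB1 at -1.43 and -1.12, HSPA5 at -0.82 and -0.63). HSPA4 turned from -0.14 to 0.19 (adjusted p = 0.0278) under total counts, and was -0.09 and -0.10 relative to the median.

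Along the squamous epithelium score, itself inversely related to the spermatid score (Spearman's rho -0.752), the directions were the opposite ones. The squamous and spermatid slopes are therefore not separate results. Of the somatic forms, 6 of the 7 were higher in libraries rich in squamous markers, and all 3 germ-cell forms were lower, where 62.4% of all tested genes were called, 32.1% as higher and 30.3% as lower. The slope was 1.67 ± 0.21 for HSPB1 (edgeR adjusted p = 9.10e-07), 1.56 ± 0.17 for HSPH1 (1.00e-07), 1.40 ± 0.15 for HSPA8 (1.01e-07), 1.08 ± 0.13 for HSP90AA1 (6.31e-07), 1.01 ± 0.14 for HSP90AB1 (1.86e-06) and 1.00 ± 0.11 for HSPA5 (1.07e-07). HSPA4 had 0.14 ± 0.083 (adjusted p = 0.156). The germ-cell forms had slopes of -0.47 ± 0.13 for HSPA4L (0.0036), -0.42 ± 0.10 for HSPA2 (0.00131) and -0.27 ± 0.11 for HSPA1L (0.0389). Without rams C10 and M7, all 7 somatic forms were called as higher (27.9% of all genes, with 26.5% lower), HSPA4 included (0.46, adjusted p = 0.00727), and of the germ-cell forms HSPA2 (-0.52, 0.0173) alone remained, with HSPA4L at -0.44 (0.121) and HSPA1L at -0.05 (0.854). Without ram M2 the same number of members, 9, was called, where 31.9% of all genes were called as higher and 29.8% as lower. HSPA1L moved to -0.44 (0.000729) there.

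**Figure D2:**
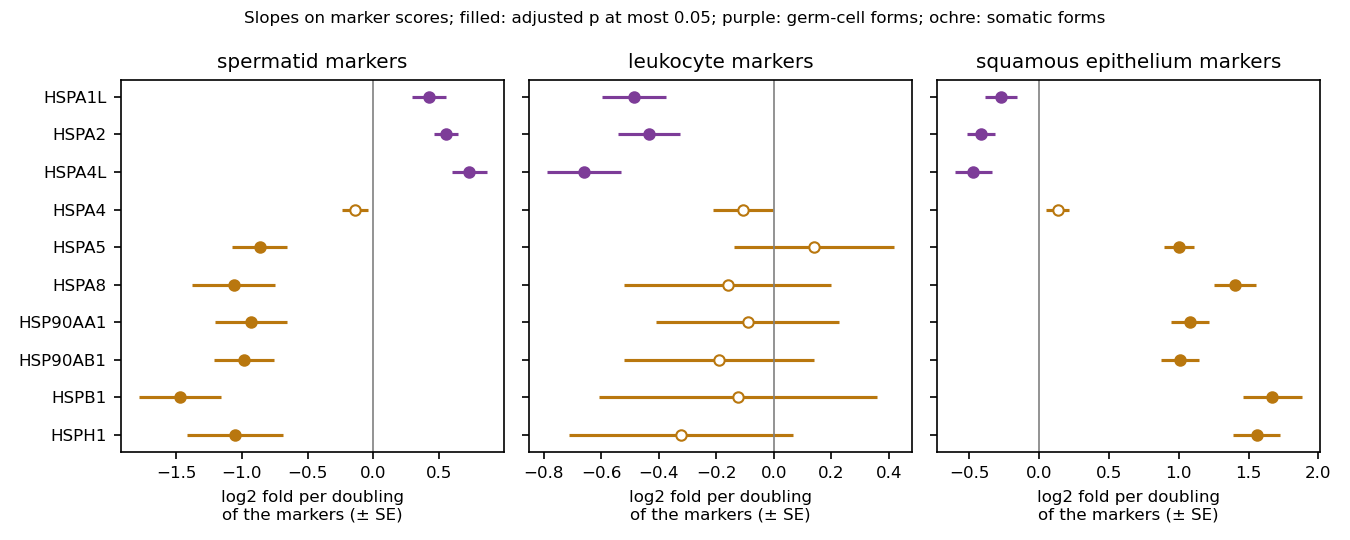
Points show the slope of each gene (log2 fold per doubling of the markers) and bars its SE over 20 rams, in 1 panel for each marker score, purple for germ-cell forms and ochre for somatic forms, filled where the adjusted p was at most 0.05. Germ-cell forms lie right of 0 for spermatid markers and left of it for leukocyte and squamous markers, while 6 somatic forms lie left for spermatid markers and right for squamous markers, and none is filled for leukocyte markers.

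Along the leukocyte score, the germ-cell forms were lower and no somatic form was called. This score called 25.6% of all tested genes, 10.6% as higher and 14.9% as lower. HSPA4L had a slope of -0.66 ± 0.13 (edgeR adjusted p = 0.00063), HSPA1L of -0.49 ± 0.11 (0.00238) and HSPA2 of -0.43 ± 0.11 (0.00429). The somatic forms ran from -0.32 ± 0.39 for HSPH1 (adjusted p = 0.620) to 0.14 ± 0.28 for HSPA5 (0.778). Without rams C1 and C10, the libraries farthest from the median leukocyte score, 4.60% of all genes were called as higher and 2.50% as lower, and HSPA4L alone of the 3 still passed (-0.64, edgeR adjusted p = 0.0396), with HSPA1L at -0.42 (0.110) and HSPA2 at -0.44 (0.0814). Under total counts, which called 7.25% of all genes, none of the 3 passed, at slopes of -0.59 for HSPA4L (0.165), -0.43 for HSPA1L (0.213) and -0.38 for HSPA2 (0.401).

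The scores were related across the rams. Spearman's rho was -0.752 between the spermatid and squamous scores, -0.573 between spermatid and leukocyte, and 0.274 between leukocyte and squamous. Rams M7 and C10 were the highest for spermatid and the lowest for squamous markers. Slopes along single scores are therefore not separate results. A call lost in a model of all 3 scores does not show that a gene was unrelated to a score. With all 3 scores in a single model, the 6 somatic forms kept their squamous slopes past the threshold, where 14.1% of all genes were called as higher: HSPH1 1.89 (adjusted p = 1.13e-05), HSPA8 1.53 (8.36e-05), HSPB1 1.48 (0.00638), HSP90AA1 1.10 (0.000946), HSP90AB1 1.01 (0.00292) and HSPA5 0.99 (0.000347). No member passed for the spermatid score in that model, which called 6.17% of all genes for it. HSPA4L had a slope close to that with the spermatid score alone (0.77, adjusted p = 0.0579), HSPA2 had 0.51 (0.158), and HSPA8 and HSPH1 changed sign (0.15 and 0.38). The germ-cell forms' squamous slopes also changed sign there, to 0.27 for HSPA4L, 0.14 for HSPA1L and 0.07 for HSPA2, none past the threshold. Their leukocyte calls were lost as well (11% of all genes were called), with slopes of -0.39 for HSPA1L (adjusted p = 0.0571), -0.36 for HSPA4L (0.0563) and -0.16 for HSPA2 (0.446). Without rams C10 and M7 the same model called 4 members, all for the squamous score and all higher, where 8.97% of all genes were called as higher: HSPH1 (2.08, adjusted p = 0.0345), HSP90AA1 (1.95, 0.0375), HSPA8 (1.86, 0.0485) and HSPA5 (1.69, 0.0313), while HSP90AB1 (1.63, 0.0542) and HSPB1 (1.85, 0.153) no longer passed. The spermatid slopes of 6 somatic forms turned positive there, none past the threshold, and 0.729% of all genes were called for that score and 5.3% for the leukocyte score.

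Ratios of related genes within a library remove depth and scaling, and their change between libraries does not depend on gene length. The log2 ratio of HSPA4L to HSPA4 ran from -0.37 in ram M6 to 4.20 in ram M5. That of HSPA2 to HSPA8 ran from -9.31 in ram C8 to 2.25 in ram C10, and that of HSPA1L to HSPA8 from -7.93 to 3.63 in the same rams. Rams C10 and M7 (1.08 for HSPA2 to HSPA8) lay apart from the others, the next of which was C5 with -1.09. HSP90AA1 and HSP90AB1, which are both somatic forms, kept closer together, with a log2 ratio between 2.45 in ram M2 and 5.2 in ram C8.

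None of the 10 chaperones passed the test between the diet lines, where 0% of all tested genes were called (edgeR, smallest adjusted p 1.00). At an unadjusted p under 0.05 there were 104 genes by edgeR, 0.766% of those tested, and 174 by DESeq2, which also called 0. Evenly spread p-values would give a larger share, 0.05. All genes share the same libraries, so the share does not measure how cautious the test was. The 0 calls do not show that the lines were alike. Among the germ-cell forms the log2 difference, methionine line over control line, was 0.58 ± 0.51 (SE) for HSPA1L, 0.37 ± 0.63 for HSPA4L and 0.19 ± 0.46 for HSPA2. Among the somatic forms it was largest for HSPB1 (1.62 ± 1.03, unadjusted edgeR p = 0.127) and HSP90AB1 (1.35 ± 0.76, 0.0895). The remaining somatic forms lay between -0.34 ± 0.71 for HSPA5 and 0.35 ± 0.34 for HSPA4. These sizes depended on the model. With the spermatid score as covariate HSPH1 had 1.21, HSPA8 0.98 and HSP90AA1 0.88, and with all 3 scores they had 0.25, 0.27 and 0.25. With the rams of a grandsire summed, since the diet was given to the F0 males, they had 0.60, 0.41 and 0.52. HSPB1 had 0.43 with all 3 scores, -0.56 under DESeq2, 1.66 under edgeR with DESeq2's size factors and 2.11 with the rams of a grandsire summed. In the same order HSP90AB1 had 0.68, -0.07, 1.37 and 1.70. None of the sizes in these models passed. Levels of all 10 overlapped between the lines. With consecutive F0 numbers taken as the twin pairs, an assumption, and the 5 pairs as a block, 0 genes were called, and the members ran from -0.07 for HSPA5 to 0.97 for HSP90AB1, all with an edgeR adjusted p of 1.00.

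The differences of HSPB1 and HSP90AB1 rested on 1 ram. Without ram M2, a setting chosen after its values were seen, HSPB1 had a log2 difference of -0.52 and HSP90AB1 of -0.01, and HSPA8 (-0.31), HSP90AA1 (-0.24) and HSPH1 (-0.15) also turned negative. HSPA4 moved to 0.04, HSPA5 to -0.52, HSPA1L to 0.29, HSPA4L to 0.24 and HSPA2 to 0.13. Leaving rams C10 and M7 out, HSPA1L had 0.99, HSPA4L 0.88 and HSPA2 0.38, and no gene was called in either setting. The medians of the lines were close for both genes, 115 and 133 CPM for HSPB1 and 82.0 and 98.3 CPM for HSP90AB1 in the control and methionine line.

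**Figure D3:**
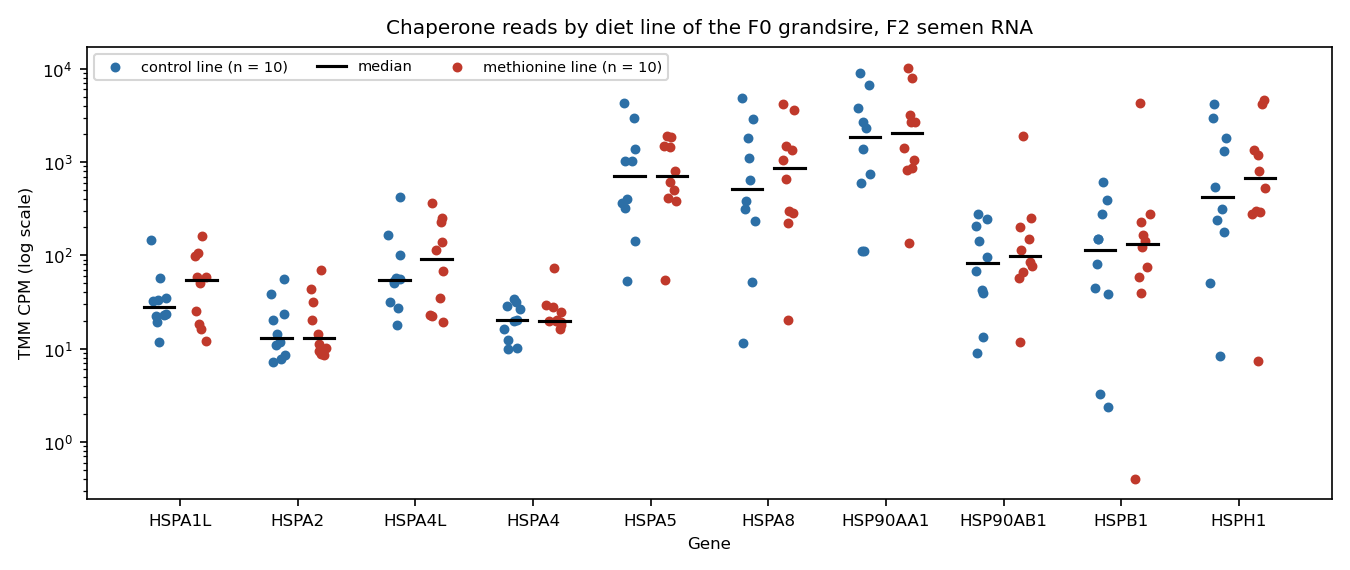
Points show the TMM CPM (log axis) of each of the 20 rams for the 10 chaperones, control line in blue and methionine line in red, 10 rams each, with a black bar at the median of each line. The lines overlap for every gene, and single methionine-line points lie far above the rest for HSP90AB1 (1885 CPM) and HSPB1 (4302 CPM).

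Ram M2 had the highest level of the 20 rams for 5 of the 10 chaperones, HSPA1L, HSPA4, HSP90AA1, HSP90AB1 and HSPB1, where it was the highest for 6.22% of all tested genes. Its level over the median of the other 19 rams was 35.4-fold for HSPB1, 22.5-fold for HSP90AB1, 8.03-fold for HSPH1, 7.38-fold for HSP90AA1, 6.42-fold for HSPA8 and 3.68-fold for HSPA4. HSPA1L (4.97-fold), HSPA4L (4.0-fold) and HSPA2 (2.67-fold) were also above most rams, although the library's spermatid score of 3.89 was low. The median of these ratios was 5.69 over the 10 members and 0.943 over all tested genes. Its 7 somatic forms took 2.0% of the library's counts, the highest of the 20 rams.

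The other ram of the same F0 grandsire, M3, had 144 CPM of HSPB1 and 113 of HSP90AB1, within the range of the rest. Ram M2 had 7072166 counts assigned to genes, above the median library, and the second highest squamous score (9.15). Ram C8, with a higher squamous score of 9.61, had 395 CPM of HSPB1 and 246 of HSP90AB1, below ram M2, but 4325 CPM of HSPA5 against 1894 and 4888 CPM of HSPA8 against 4159. The part of cell make-up in the values of ram M2 was not tested.

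Of the wider chaperone network, 105 genes were tested, and ram M2 had the highest level for 22 of them, where it was the highest for 6.22% of all tested genes. It stood over 10-fold above the median of the others for 12, as for 0.545% of all tested genes, a limit chosen after the values were seen. These were 53.4-fold for HSPB8, a small heat shock protein, and 52.3-fold for BAG3, the co-chaperone that links HSPB8 with HSP70. The co-chaperones of HSP90 among them were FKBP4 (43.6-fold), CACYBP (23.8), STIP1 (14.1), PTGES3 (13.5) and AHSA1 (11.3). The J-domain proteins were DNAJA4 (21.4-fold), DNAJB4 (13.9) and DNAJB1 (10.6), and the last were HSPA6, a stress-induced HSP70 (19.9-fold), and HSPD1, the mitochondrial chaperonin (18.9-fold). HSPA1A was 8.40-fold above. For the 12 genes, the lead of ram M2 over the next highest ram ran from 1.10-fold for DNAJB4 (ram C8) to 21.4-fold for FKBP4 (ram C7). Ram M4 was the next highest for BAG3, DNAJB1, DNAJA4 (1.69-fold), STIP1 and CACYBP. CRYAB, the small heat shock protein alpha B-crystallin, had too few reads in the other rams to be tested and was named after its value was seen. Of the 19 network genes below the filter, it was the 1 in which ram M2 had the highest level. Ram M2 held 3109 counts of it, or 589.99 CPM, against 1 to 22 counts and at most 5.27 CPM in the others, a level 162-fold over their median. The median over the 105 tested genes was 1.20.

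**Figure D4:**
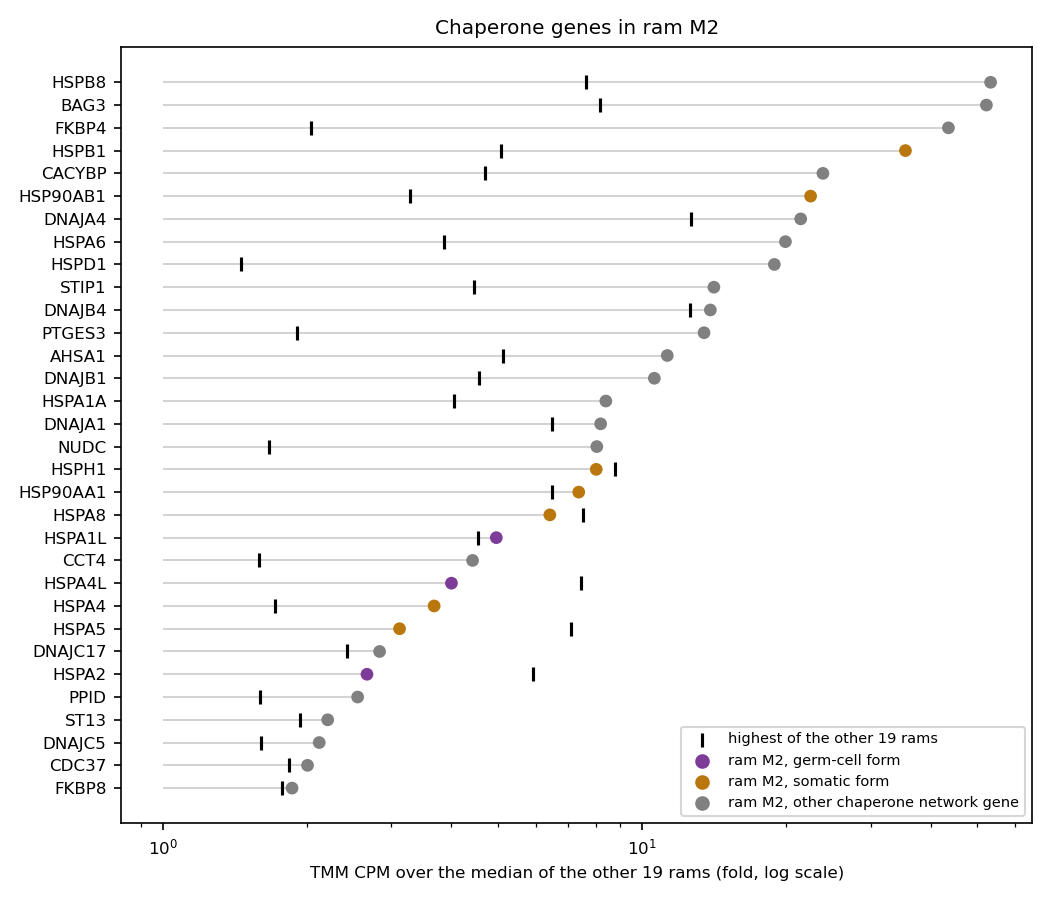
Dots show the TMM CPM of ram M2 over the median of the other 19 rams (fold, log axis) for the 10 chaperones and for the tested chaperone network genes in which ram M2 was highest, purple for germ-cell forms, ochre for somatic forms and grey for the rest, and ticks show the highest of the other rams. Among the genes that passed the filter, HSPB8, BAG3, FKBP4 and HSPB1 lead with 53.4-, 52.3-, 43.6- and 35.4-fold, and the dots of HSPH1, HSPA8, HSPA4L, HSPA5 and HSPA2 fall short of the highest other ram.

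Beyond the 10 members, lists of the chaperone network moved in both directions along the spermatid score. Of 105 tested genes 31 were higher and 38 lower, close to the background of 26.3% and 34.4%, and the median slope was -0.13 against -0.05 over all genes. There were 23 and 15 without rams C10 and M7, where 17.3% and 17.02% of all genes were called. Without ram M2 there were 30 and 32, again close to the share of all genes, 25.4% and 34.2%. J-domain proteins held 12 higher and 12 lower of 40. The steepest were DNAJB7 (1.27 ± 0.14), DNAJB8 (1.24 ± 0.095) and DNAJB3 (0.99 ± 0.080), J-domain proteins of the testis.

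The counts of the single lists stand beside the same 26.3% higher and 34.4% lower over all genes. Small heat shock proteins other than HSPB1 had 2 of 3 tested genes higher, HSPB9 (1.16 ± 0.10), which is made in the testis, and ODF1 (1.28 ± 0.10), a sperm tail protein that is itself among the markers of the score, while HSPB8 was lower (-1.29 ± 0.28, and -0.86 without ram M2). Of the HSP70 and HSP110 genes outside the members, 2 of 8 were higher and 4 lower, with HSPA6 (-1.20 ± 0.31) and HSPA1A (-1.05 ± 0.33) falling and HSPA12A (0.52 ± 0.086) rising. HSP90B1, the HSP90 of the endoplasmic reticulum, fell (-0.64 ± 0.20) and the mitochondrial TRAP1 was not called (-0.19 ± 0.19; named as the list's other tested gene).

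HSP90 co-chaperones held 1 higher and 9 lower of 18 (background 26.3% and 34.4%), and 1 and 2 without rams C10 and M7 (17.3% and 17.02%). The higher one was FKBP6 (0.79 ± 0.11), an immunophilin needed in meiosis, and among the lower ones were CACYBP (-0.72 ± 0.21) and AHSA1 (-0.65 ± 0.20), the activator of the HSP90 ATPase. Without ram M2 they had -0.45 and -0.51 (edgeR adjusted p = 0.0274 and 0.0277), in the other order. Factors that regulate HSP70 split evenly, 3 higher and 3 lower of 9, with SIL1 (0.68 ± 0.080), an exchange factor for HSPA5, on one side and BAG3 (-1.18 ± 0.33) and GRPEL2 (-0.74 ± 0.24) on the other.

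In the endoplasmic reticulum, 3 of 9 lectin chaperones and disulfide isomerases were higher and 5 lower, against 26.3% and 34.4% of all genes. PDILT (0.86 ± 0.093), a testis disulfide isomerase, rose, and P4HB (-0.94 ± 0.21) and CALR (-0.85 ± 0.19), the general isomerase and calreticulin, fell. The chaperonins had 5 higher and 2 lower of 10, with the testis subunit CCT6B at 0.88 ± 0.077, CCT2 at 0.54 ± 0.093 and CCT6A at 0.44 ± 0.11. Among the heat shock factors and their partners, 3 of 6 were higher, HSF2BP (0.84 ± 0.083), a meiotic protein that binds HSF2, HSF5 (0.45 ± 0.11) and HSF4 (0.34 ± 0.10), and 1 was lower. HSF1, the main heat shock transcription factor, had -0.00181 ± 0.074 (edgeR adjusted p = 0.985) and was named after its value was seen. Without rams C10 and M7, the calls of HSPA1A (-0.72, adjusted p = 0.0599), HSP90B1 (-0.50, 0.0936), AHSA1 (-0.54, 0.0543), GRPEL2 (-0.54, 0.122), CCT6A (0.23, 0.175), HSF5 (0.30, 0.0894) and HSF4 (0.31, 0.0713) were lost, and the other genes called by name in these lists still passed. The lists then held, beside 17.3% higher and 17.02% lower over all genes, 9 higher and 5 lower J-domain proteins, 3 and 3 in the endoplasmic reticulum list, 3 and 0 chaperonins, 2 and 1 HSP70 and HSP110 genes, 2 and 2 HSP70 regulators and 1 and 1 heat shock factors. Without ram M2 every gene called by name in these lists still passed.

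**Figure D5:**
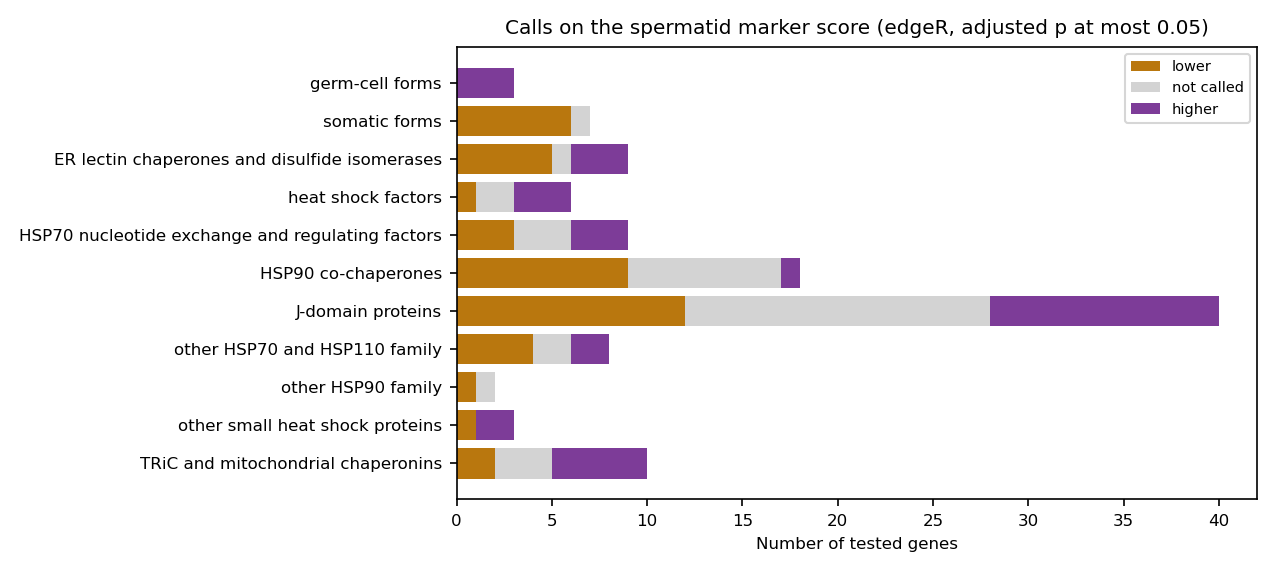
Bars count the tested genes of each chaperone list (x axis, number of genes) that were lower (ochre), not called (grey) or higher (purple) along the spermatid marker score. The germ-cell forms are all higher, 6 of 7 somatic forms and 9 of 18 HSP90 co-chaperones are lower, and J-domain proteins hold 12 in each direction.

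Along the other scores the network gave 43 higher and 29 lower for squamous markers (median slope 0.10) and 1 higher and 23 lower for leukocyte markers (median -0.11, background 10.6% and 14.9%). Without rams C10 and M7 the squamous counts were 48 and 19 (background 27.9% and 26.5%), and without rams C1 and C10 the leukocyte counts were 0 and 6 (4.60% and 2.50%). For the diet line 0 of the 105 were called, with a median log2 difference of 0.04 against -0.05 over all genes. Per list, the squamous score called 13 higher and 11 lower of 40 J-domain proteins and 9 higher and 1 lower of 18 HSP90 co-chaperones, beside the background of 32.1% and 30.3%.

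Likeness between genes was described by Spearman's rho of TMM CPM over the 20 rams, without a test, since all points share libraries, scaling and cell make-up. Among the somatic forms rho ran from 0.490 to 0.980 over 21 pairs (median 0.901), among the germ-cell forms from 0.654 to 0.856 over 3 pairs, and between the forms from -0.669 to 0.179 over 21 pairs (median -0.417). Leaving rams C10 and M7 out, these ranges were 0.647 to 0.979, 0.542 to 0.812 and -0.573 to 0.125. The median was then 0.864 among the somatic forms and -0.257 between the forms. The genes nearest to HSP90AA1 were HSPH1 (rho 0.980), PHACTR4 (0.965) and HSPA8 (0.964). HSPH1 was also nearest to HSP90AB1 (0.973), before IPPK (0.962) and AHSA1 (0.961).

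HSPA4 was nearest to DNAJB4 (0.833), MRPS6 (0.806) and CHORDC1 (0.803), 2 of which are co-chaperones. HSPA5 was nearest to YWHAG (0.982), DIP2B (0.964) and CHP1 (0.961), HSPA8 to ELF5 (0.967), OMA1 (0.965) and UGCG (0.965), and HSPB1 to LRP1 (0.962), LOC101113728 (0.959) and HYAL1 (0.955). Of the germ-cell forms, HSPA1L was nearest to TMEM190 (0.890), HSPA4L (0.856) and SOCS7 (0.853). HSPA4L was nearest to GET4 (0.928), EYA1 (0.908) and CABYR (0.908), a protein of the sperm tail that is also in the marker list, and HSPA2 to FAM160B2 (0.889), HAGH (0.881) and OSGIN1 (0.875).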

How the data were processed

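RNA was measured in semen of 20 F2 rams, 10 per diet line (M1 to M10 and C1 to C10, numbered in the order of deposit). The authors deposited raw counts per gene, made by STAR in its GeneCounts mode on the build Oar_rambouillet_v1.0 after trimming with Trimmomatic. Versions of the aligner, the annotation and the strand setting are not given in the sources used here. A gene was tested (13577 of 28525) when its count reached 15 in over 10 libraries. The paper states the same filter and reports more genes passing it, for reasons not tested here. Counts were scaled by TMM and fitted with edgeR 4.0.16 (R 4.3.3; quasi-likelihood F test), on diet line alone or on a marker score with diet line as covariate, and adjusted by Benjamini-Hochberg over all tested genes (threshold 0.05). A score is the mean log2 CPM of a list's tested genes (prior count 2), computed again where total counts or DESeq2's size factors replaced TMM in edgeR. Each SE was derived as the size of the log2 effect divided by the square root of its F statistic. The fits were tested on simulated counts. Alternatives were DESeq2 1.42.0, its size factors, total counts, no filter, rams of a grandsire summed, score covariates, and leaving rams out; leaving out ram M2, rams M7 and C10 from the diet comparison or from the model of 3 scores, refitting the network without these rams, and a block of consecutive F0 numbers for the diet were chosen after the data were seen. Named genes were the 10 members, up to 3 genes per network list with the steepest called spermatid slope, any called for diet line, and each member's 3 nearest genes; exceptions are marked. Members and lists were chosen with earlier results of these data known. All 10 members matched the RefSeq gene table by symbol. Levels were not compared between genes, since no lengths were used, and DNA methylation at these genes was not analysed here.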

Additional observations from a re-analysis of the deposited data

Results flagged for a closer look

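The values of 5 members lay far from the others of their diet line by Dixon's test for 10 samples, over 20 groups tested (10 genes in each of the lines). Chance flags about 1 in 20 groups when values are normal, and CPM is skewed. Only these 5 high values were checked again on log2 CPM. Among them the gap over the range stayed above the critical value for HSPA4 alone (0.615). It was 0.399 for HSP90AB1, 0.378 for HSPA1L, 0.324 for HSPB1 and 0.3002 for HSPA4L. In the methionine line all 3 were those of ram M2: HSPB1 at 4302 CPM (next 276), HSP90AB1 at 1885 CPM (next 252) and HSPA4 at 73.6 CPM (next 29.4). In the control line both were those of ram C10: HSPA4L at 419 CPM (next 163) and HSPA1L at 146 CPM (next 56.8). Ram C10 had the highest spermatid score of the 20 rams, 7.75, and ram M2 the second highest squamous score, 9.15. Values standing low on log2 CPM were not looked for. In the methionine line ram M7 had 7.27 CPM of HSPH1 (next 277) and 55.0 CPM of HSPA5 (next 379).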

How the results depend on the processing

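The diet comparison called 0 genes as reported and in each of its alternatives, and no member's call changed. Directions that turned there, none past the threshold, were HSPA2 (-0.0637) and HSPA5 (0.0339) under total counts, HSPA8 (-0.0214) without the filter, HSP90AB1 (-0.0665) and HSPB1 (-0.56) under DESeq2, HSPA5 (0.24) with the spermatid score as covariate, and HSPA8 (-0.31), HSP90AA1 (-0.24), HSP90AB1 (-0.0114), HSPB1 (-0.52) and HSPH1 (-0.15) without ram M2. DESeq2 was run with its default handling of outlying counts. Under edgeR with its size factors HSP90AB1 had 1.37 and HSPB1 1.66. The cause of the turned directions was not tested. For the spermatid score, 8239 genes and 9 members were called, against 838 and 0 with 3 scores in one model, 99 and 0 with 3 scores and without rams C10 and M7, and 4660 and 5 without those rams alone. HSPA8 (0.15) and HSPH1 (0.38) turned with 3 scores, and HSPA4 (0.19) under total counts. With 3 scores and without rams C10 and M7, HSPA4 (0.21), HSPA5 (0.52), HSPA8 (0.40), HSP90AA1 (0.55), HSP90AB1 (0.27) and HSPH1 (0.52) turned. For the leukocyte score, 3470 genes and 3 members fell to 985 and 0 under total counts, 1487 and 0 with 3 scores, 719 and 0 with 3 scores and without rams C10 and M7 (where HSPA8 (0.10), HSP90AA1 (0.26) and HSPB1 (0.0245) turned), and 963 and 1 without rams C1 and C10. HSPA5 turned under total counts and with 3 scores (-0.0174 and -0.0203), and HSP90AB1 (0.0666) and HSPB1 (0.29) without ram M2. For the squamous score, 8472 genes became 3871 under total counts and 2330 with 3 scores, where HSPA1L (0.14), HSPA2 (0.0653) and HSPA4L (0.27) turned, as did HSPA4 (-0.11) under total counts. With 3 scores and without rams C10 and M7 they were 1688 genes and 4 members, and HSPA1L (0.66) and HSPA4L (0.59) turned. Of the called genes, 41.6% were higher for the leukocyte score against 97.5% under total counts, and 51.4% against 38.1% for the squamous score, whose median slope moved from 0.0151 to -0.20. HSPA1L lost its squamous call under DESeq2 (-0.26), its size factors (-0.25) and without the filter (-0.20), against -0.27. The planned methylation and per-length results were not run, as no annotation of the counted build was used here. With 1 read in ram M7, HSPB1 is near the depth limit there.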
